A study of Homo sapiens with 18 samples.

Results

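The subject of this account is the hypoxia and glycolysis program of A549 cells, 37 genes among the 30484 gene names on the array. The genes were chosen by name, as known oxygen sensors, targets of the hypoxia-inducible factors (HIFs) and enzymes of glycolysis, with earlier results of these arrays already known. In those results the rise of ALDOC at 22 h and the rise of STC1 after AS30 at 3 h stood among the large changes, so these values are descriptions and carry no test here. All 37 genes were present on the array, through 65 probes, of which 62 passed the filter on missing spots. On none of the 18 arrays was LOX well above background, and the other 36 genes were tested, each through its brightest kept probe.

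A549 is an established line of human lung adenocarcinoma epithelium. Cells that had attached for 24 h received Ludox colloidal silica nanoparticles (NPs) for 2 h in medium without serum and then recovered in medium with 10% serum. The exposures were SM30 NPs, labelled 9 nm in diameter, with 3 h of recovery, and AS30 NPs, labelled 18 nm in diameter, with 3 h or 22 h. Each exposure had its own control cells, which went through the same steps without NPs, and every one of the 6 groups held 3 samples with the letters A, B and C. No label names an exposure to low oxygen, and cells treated with SM30 for the long recovery were not analysed here.

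When oxygen is low, the prolyl hydroxylases EGLN1 and EGLN3 stop marking the HIF alpha subunits HIF1A and EPAS1 for destruction, and the stabilised protein switches on genes for glucose uptake, glycolysis, pH control and mitophagy. This control acts on the protein, so the mRNA of HIF1A is not a readout of it. Many of the same targets also answer to growth factors, inflammation and nutrient supply, and lung tumour lines express the glycolytic enzymes at a high level in ordinary culture.

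HIF dimers bind a short core close to the start of many of these genes. Its form ACGTG was the only one searched here, so a gene without ACGTG may hold another form. RefSeq promoter windows of 300 bases on build GRCh38.p14, from 250 before to 50 after the start, were found for 32 of the 37 genes. STC1, BNIP3L, SLC2A3, NDRG1 and VEGFA were not matched. ACGTG stood on one or the other strand in a window of 19 of the 32 genes. Among all 27305 genes of that RefSeq set, 24.9% held it, and among all 35116 windows, 21.4%. Some of the genes have several windows, and among the 20 members with 1 window 9 held ACGTG, against 21.3% of all genes with 1 window. The upstream stretches below are shown because they carry ACGTG in front of genes whose values are described next. These include ALDOC, the member with the largest rise at 22 h, and LDHA, which passed in no exposure. Capitals mark ACGTG or its reverse complement CACGT, and CACGTG, an E box that other factors also bind, holds both.
LDHA: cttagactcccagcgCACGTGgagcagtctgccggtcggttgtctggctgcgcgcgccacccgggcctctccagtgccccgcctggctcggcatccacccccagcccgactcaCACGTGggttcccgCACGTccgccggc
PGK1: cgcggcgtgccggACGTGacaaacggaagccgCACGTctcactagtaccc
ALDOC: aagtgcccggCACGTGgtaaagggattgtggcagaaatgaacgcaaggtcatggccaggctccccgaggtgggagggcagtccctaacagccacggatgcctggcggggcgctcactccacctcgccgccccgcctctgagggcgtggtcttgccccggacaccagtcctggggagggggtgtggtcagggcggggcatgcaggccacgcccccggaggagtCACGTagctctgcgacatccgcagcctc
PFKFB3: caccctcctcccCACGTGgaagggggctgg
BNIP3: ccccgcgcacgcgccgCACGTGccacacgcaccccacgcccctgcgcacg
These lie on the plus strand at chr11:18394363-18394502 for LDHA, chrX:78104033-78104082 for PGK1 and chr10:6202812-6202841 for PFKFB3. The ALDOC and BNIP3 stretches are on the minus strand at chr17:28576896-28577145 and chr10:131982024-131982073. The PFKFB3 stretch precedes a start inside the gene. CACGTG occurred in windows of 7 of the 32 genes, beside 8.77% of all genes. Of the 5 matched genes called in any exposure, ALDOC with its known rise included, ALDOC and PFKFB3 held ACGTG and EGLN3, CA12 and PFKFB4 did not. Of the 27 matched genes that passed in none, 17 held it. A match is a string of letters, and binding was not measured.

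All values below are log2 of the processed probe signal after quantile normalization over the 18 arrays, and levels are never set between probes. A difference is the mean of the 3 log2 ratios of treated over same-letter control arrays, or of those that passed the spot filter, and limma tested it over all kept probes with Benjamini-Hochberg adjustment at 0.05. After SM30 the fit held 2 ratios for BNIP3, HK1, SLC16A3 and ALDOA. In each case the missing value was of a spot flagged as an outlier, on an array where the probe was well above background. Between 51.9% and 72.4% of the spots of an array were well above background, and the number of arrays sets the precision. The 8 epithelial markers of A549 (KRT8, KRT18, KRT19, EPCAM under its older name, CDH1, AKR1B10, AKR1C1 and ALDH1A1) were well above background on all 18 arrays. CDKN2A, which A549 lacks, had the brighter of its 2 probes above background on every array, at 10.58 to 11.58, and the other probe was not examined. Of the markers of other cells, PTPRC, COL1A2, PDGFRB and PECAM1 were above background on 0 arrays, and CD3E, CD14 and COL1A1 on 18. DCN and CDH5 were above it on 1 array each, and LYZ and VWF on 6 each. The arrays lay on 5 slides, and AS30-treated and control arrays at 3 h shared none, so that slide and treatment cannot be told apart within that comparison. The methods name 3 biological replicates for each condition. The labels do not say whether the letters mark separate cultures, so p-values measure the spread between these samples. In such bulk RNA, fewer cells of a kind and less RNA per cell cannot be told apart.

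In the 3 exposures 7, 3 and 3 of the 36 tested genes were called, and at 3 h the calls went both ways. After SM30 at 3 h, STC1, PFKFB4, BNIP3L and CA12 were higher and EGLN3, SLC2A3 and PFKFB3 lower, 7 of 36 tested, where 7.67% of all genes passed (4.24% higher and 3.43% lower). After AS30 at 3 h, STC1 was higher and EGLN3 and SLC2A3 lower, 3 of 36, where 2.62% of all genes passed (1.61% higher and 1.01% lower). After AS30 at 22 h, ALDOC, NDRG1 and BNIP3L were higher and no member was lower, 3 of 36, where 3.83% of all genes passed (2.72% higher and 1.11% lower). Because the genes were chosen with such results known, nothing is read from these shares, and the counts include STC1 after AS30 at 3 h and ALDOC at 22 h, whose rises were known. Without them 2 members were called in each AS30 exposure. The median log2 difference of the 36 genes was 0.04, 0.07 and 0.09 in the 3 exposures, beside -0.07, 0.02 and -0.01 over all genes. Unadjusted p-values were under 0.05 for 8, 12 and 16 of the 36, which is 22.2%, 33.3% and 44.4%, beside 25.4%, 25.1% and 23.7% of all genes.

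**Figure D1:**
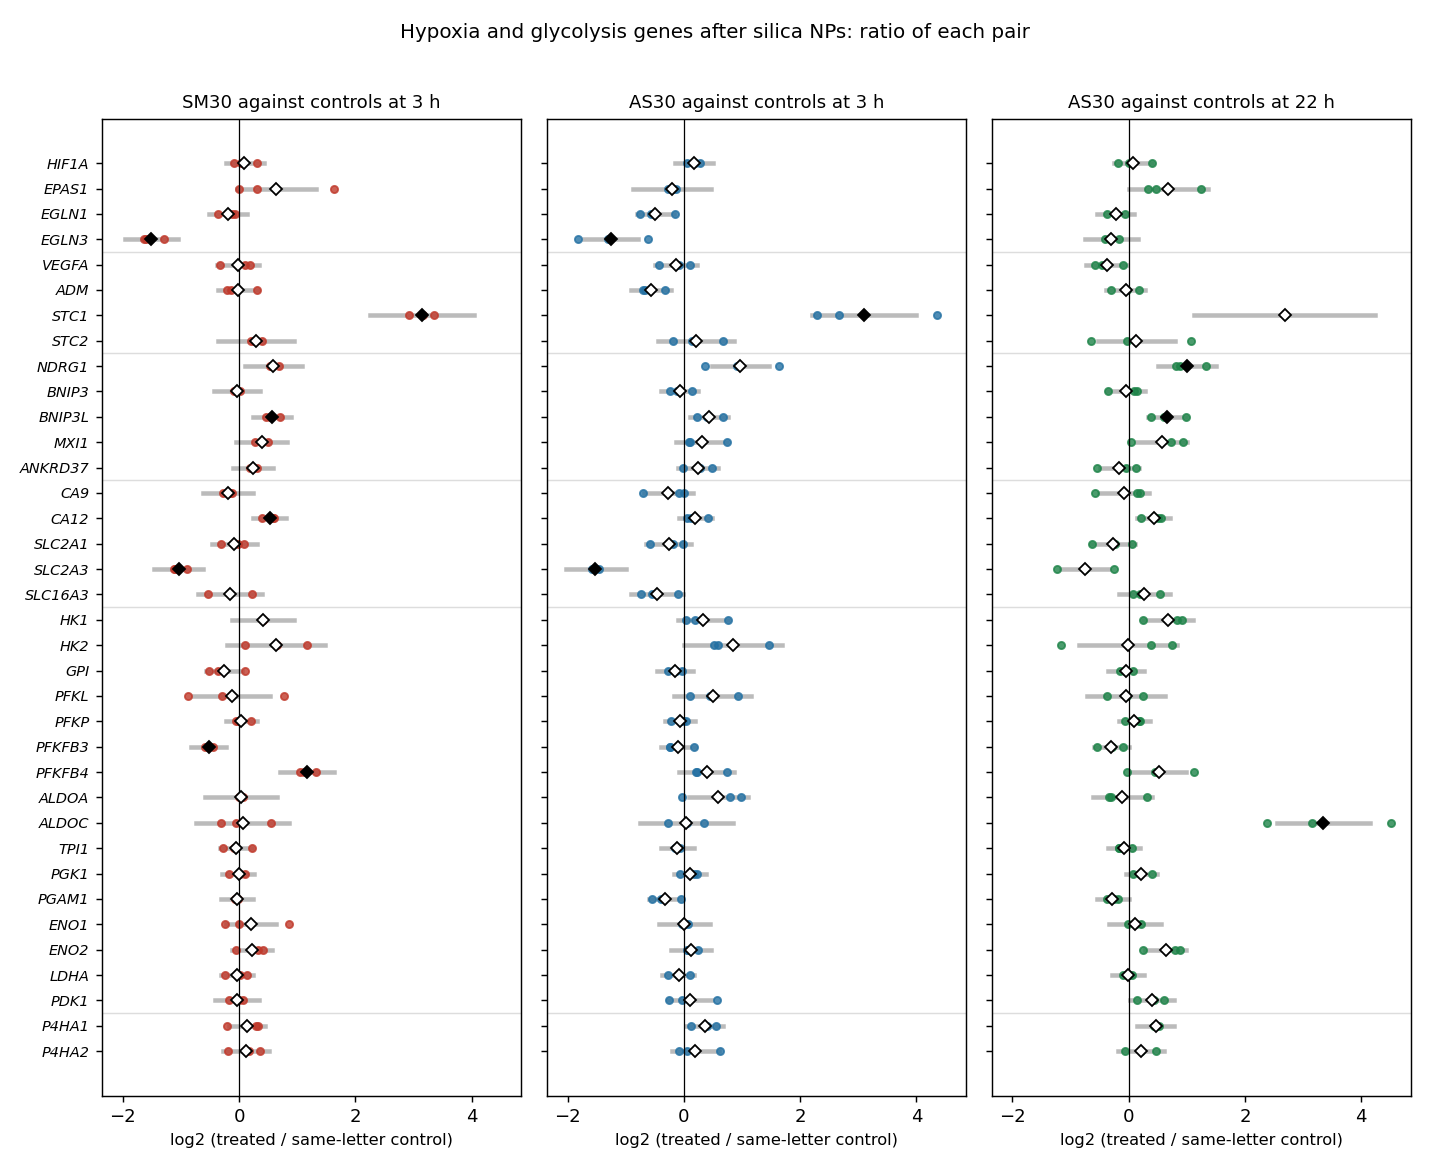
Log2 ratio of treated over same-letter control for the 36 tested genes (rows, in order of role) in the 3 exposures (panels). Coloured points are the pairs, diamonds the fitted mean, filled where the adjusted p is under 0.05 (a description for STC1 after AS30 at 3 h and ALDOC at 22 h), and grey bars the 95% interval of the mean. Most diamonds lie near 0, and STC1 and ALDOC stand far to the right, STC1 by 3.15 and 3.10 at 3 h and ALDOC by 3.35 at 22 h.

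Among the oxygen sensors, EGLN3, the hydroxylase that is itself a HIF target, fell at 3 h. After SM30 its levels were 5.55, 5.92 and 5.61 in treated cells A, B and C, against 7.18, 7.22 and 7.21 in their controls. After AS30 at 3 h they were 5.67, 4.34 and 5.19 against 6.98, 6.16 and 5.81, with treated B and control C not well above background. Both sets of 3 h groups were apart. The difference was -1.51 ± 0.20 (SE) for SM30, 2.85-fold lower, at an adjusted p of 0.0057, and -1.25 ± 0.20 (SE) for AS30 at an adjusted p of 0.025. At 22 h the levels were 6.58, 6.63 and 6.55 against 6.91, 6.80 and 6.95, a difference of -0.30 ± 0.20 (SE) that did not pass (adjusted p = 0.42). The groups did not overlap there either. EGLN3 is measured by 1 probe, in the gene on chromosome 14 at 33464392 to 33464451 (build hg18). The SM30 call held in 17 of 19 alternative settings and the AS30 call in 11 of 19. With normexp background correction, whose offset compresses dim signals, the differences were -0.42 and -0.18, and the second did not pass (adjusted p = 0.13).

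The HIF subunits themselves gave no call. HIF1A stood at 12.90, 12.89 and 12.83 after SM30 and 12.58, 12.85 and 12.91 in controls. Its levels were 11.94, 12.32 and 11.99 after AS30 at 3 h against 11.88, 12.13 and 11.72, and 12.09, 12.06 and 12.21 at 22 h against 12.09, 12.26 and 11.79. Treated and control arrays overlapped in all 3 exposures, and the differences were 0.09, 0.18 and 0.07, with intervals (95%) of -0.23 to 0.42, -0.15 to 0.50 and -0.25 to 0.40. The SM30 culture set as a whole, controls included, lay above the AS30 sets, and culture set and slide cannot be told apart. EPAS1, the HIF alpha subunit first described in endothelium, was at 14.76, 16.22 and 14.63 after SM30 against 14.46, 14.59 and 14.63. Treated B alone was high, and the difference of 0.64 ± 0.30 (SE) did not pass (adjusted p = 0.22). After AS30 it was at 13.95, 14.16 and 14.10 against 14.13, 14.44 and 14.24 at 3 h and at 14.53, 14.33 and 14.76 against 14.07, 14.00 and 13.50 at 22 h. All 3 pairs were below control at 3 h and all 3 above it at 22 h, and the differences of -0.20 and 0.68 did not pass (adjusted p = 0.71 and 0.21). The dimmer second EPAS1 probe, above background on all 18 arrays, gave 0.54 at 3 h and 0.52 at 22 h (adjusted p = 0.18 and 0.2), so the probes disagree in direction at 3 h and no direction is settled there. EGLN1, the main cellular oxygen sensor, was at -0.19, -0.49 and -0.22 on the same scale of differences and passed in none.

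**Figure D2:**
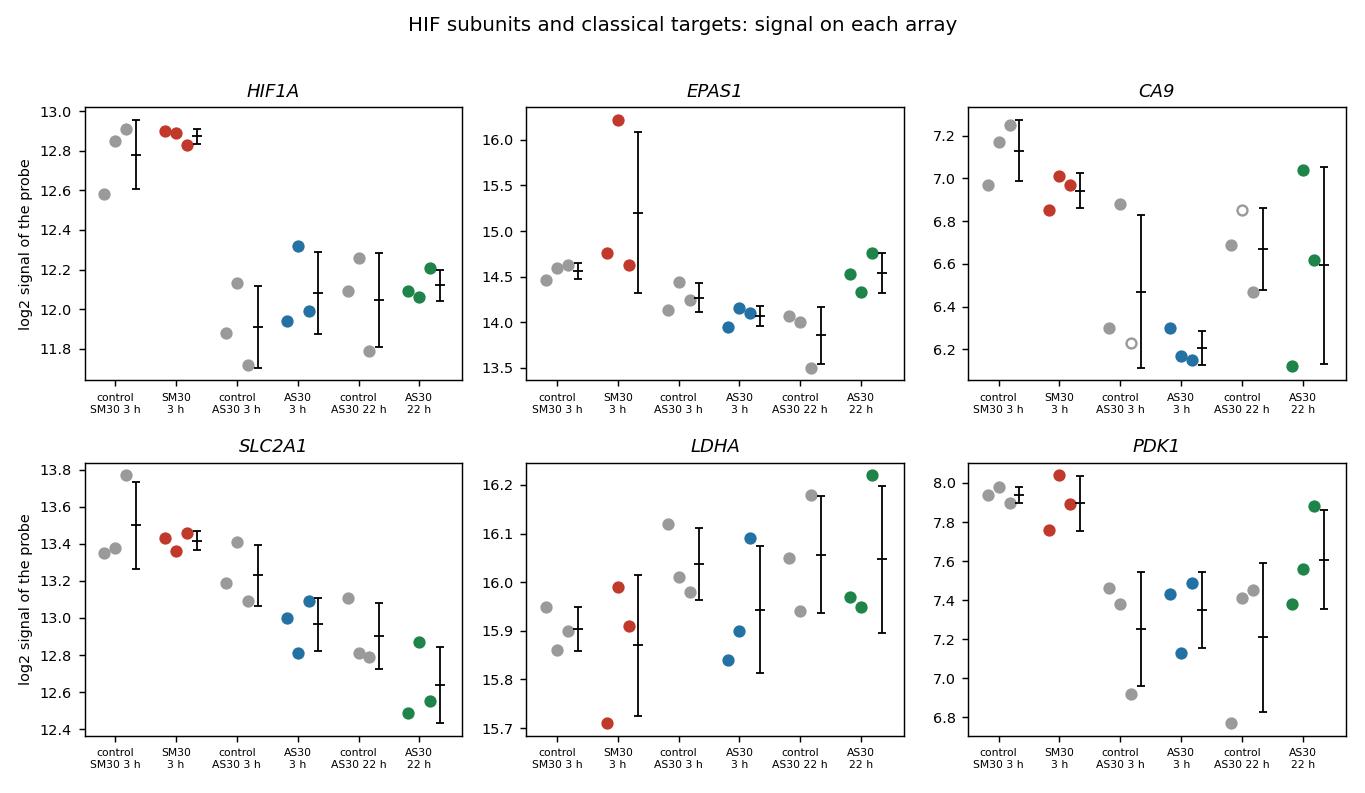
Log2 signal of the probe on each array for HIF1A, EPAS1 and 4 classical targets (panels), in the 6 groups on the horizontal axis. Points are arrays A, B and C from left to right, open where the probe was not well above background, and the black marks are the mean ± SD of 3 arrays. Treated and control points mix in most panels, and the SM30 B array stands alone at 16.22 for EPAS1.

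STC1, a secreted glycoprotein that regulates phosphate and calcium handling and is induced by hypoxia, was higher after both 3 h exposures. Levels were 7.81, 7.97 and 7.64 after SM30 against 4.45, 5.05 and 4.48 in controls, of which C was not well above background. After AS30 at 3 h they were 8.06, 9.21 and 8.22 against 5.77, 4.86 and 5.56, with controls B and C not well above background. Treated arrays stood above control arrays throughout. The SM30 difference was 3.15 ± 0.37 (SE), 8.85-fold, with an adjusted p of 0.0078, and the AS30 difference was 3.10 ± 0.37 (SE), 8.57-fold. At 22 h the levels were 5.71, 5.09 and 7.25 against 2.58, 2.96 and 4.56. None of the 3 controls was well above background at 22 h, controls A and B were also dropped by the spot filter, and so the fit held pair C alone, which was assumed to vary like the other exposures. That ratio was 2.69 (adjusted p = 0.077), and no limit above 1-fold could be set for the group means. Leaving out the SM30 A, B or C pair gave adjusted p-values of 0.053, 0.059 and 0.063 for SM30, with differences of 3.04, 3.26 and 3.14. With normexp background correction the differences were 0.82 after SM30 and 1.02 after AS30 at 3 h, so the size of the fold depends on how dim controls are treated.

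The other secreted members did not pass. VEGFA, the angiogenic growth factor, had differences of -0.02, -0.14 and -0.38 after SM30, AS30 at 3 h and AS30 at 22 h. ADM, the vasodilator adrenomedullin, had -0.02, -0.56 and -0.05. STC2, the paralog of STC1, had 0.29, 0.21 and 0.13. The lowest adjusted p among these 9 values, each from the brightest probe, was 0.083, that of ADM after AS30 at 3 h. Another VEGFA probe gave 0.63 after SM30 (adjusted p = 0.078) where the brightest gave -0.02, and the second STC2 probe gave -0.59 at 22 h (adjusted p = 0.21), so probes of these genes disagree.

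Of the stress and mitophagy members, NDRG1 and BNIP3L were higher and BNIP3 did not pass. NDRG1, a hypoxia- and stress-responsive gene of the NDRG family, read 14.04, 14.04 and 14.10 after SM30 against 13.51, 13.35 and 13.55. It read 14.23, 14.57 and 14.22 after AS30 at 3 h against 13.32, 12.94 and 13.85, and 13.32, 13.39 and 14.12 at 22 h against 12.51, 12.50 and 12.79. Every treated array was above every control array of its exposure. The differences were 0.59 ± 0.22 (SE), 0.97 ± 0.22 (SE) and 1.01 ± 0.22 (SE), and the 22 h value, 2.01-fold, passed (adjusted p = 0.045) while the 3 h values did not (adjusted p = 0.14 and 0.057). That call held in 5 of 19 alternative settings, and the second probe of the gene gave 0.60 (adjusted p = 0.099).

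BNIP3L encodes a mitochondrial receptor for mitophagy. Its levels were 11.66, 11.61 and 11.54 after SM30 against 11.12, 11.14 and 10.85, a difference of 0.57 ± 0.14 (SE) with an adjusted p of 0.049. They were 11.31, 11.32 and 11.04 after AS30 at 3 h against 11.08, 10.64 and 10.64, a difference of 0.44 ± 0.14 (SE) (adjusted p = 0.12). At 22 h they were 11.37, 10.79 and 11.47 against 10.39, 10.40 and 10.86, a difference of 0.66 ± 0.14 (SE) with an adjusted p of 0.046. Groups were apart after SM30 and overlapped in the other exposures. The second probe gave 0.60 for SM30 and 1.00 for AS30 at 22 h, adjusted p = 0.041 and 0.019, so both probes passed in both. The calls of the brighter probe lay near the threshold and held in 6 and 8 of 19 alternative settings. BNIP3, its paralog, had differences of -0.04, -0.07 and -0.04. MXI1, a MYC antagonist, and ANKRD37 gave 0.39, 0.31 and 0.57, and 0.24, 0.25 and -0.16, and passed in none.

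**Figure D3:**
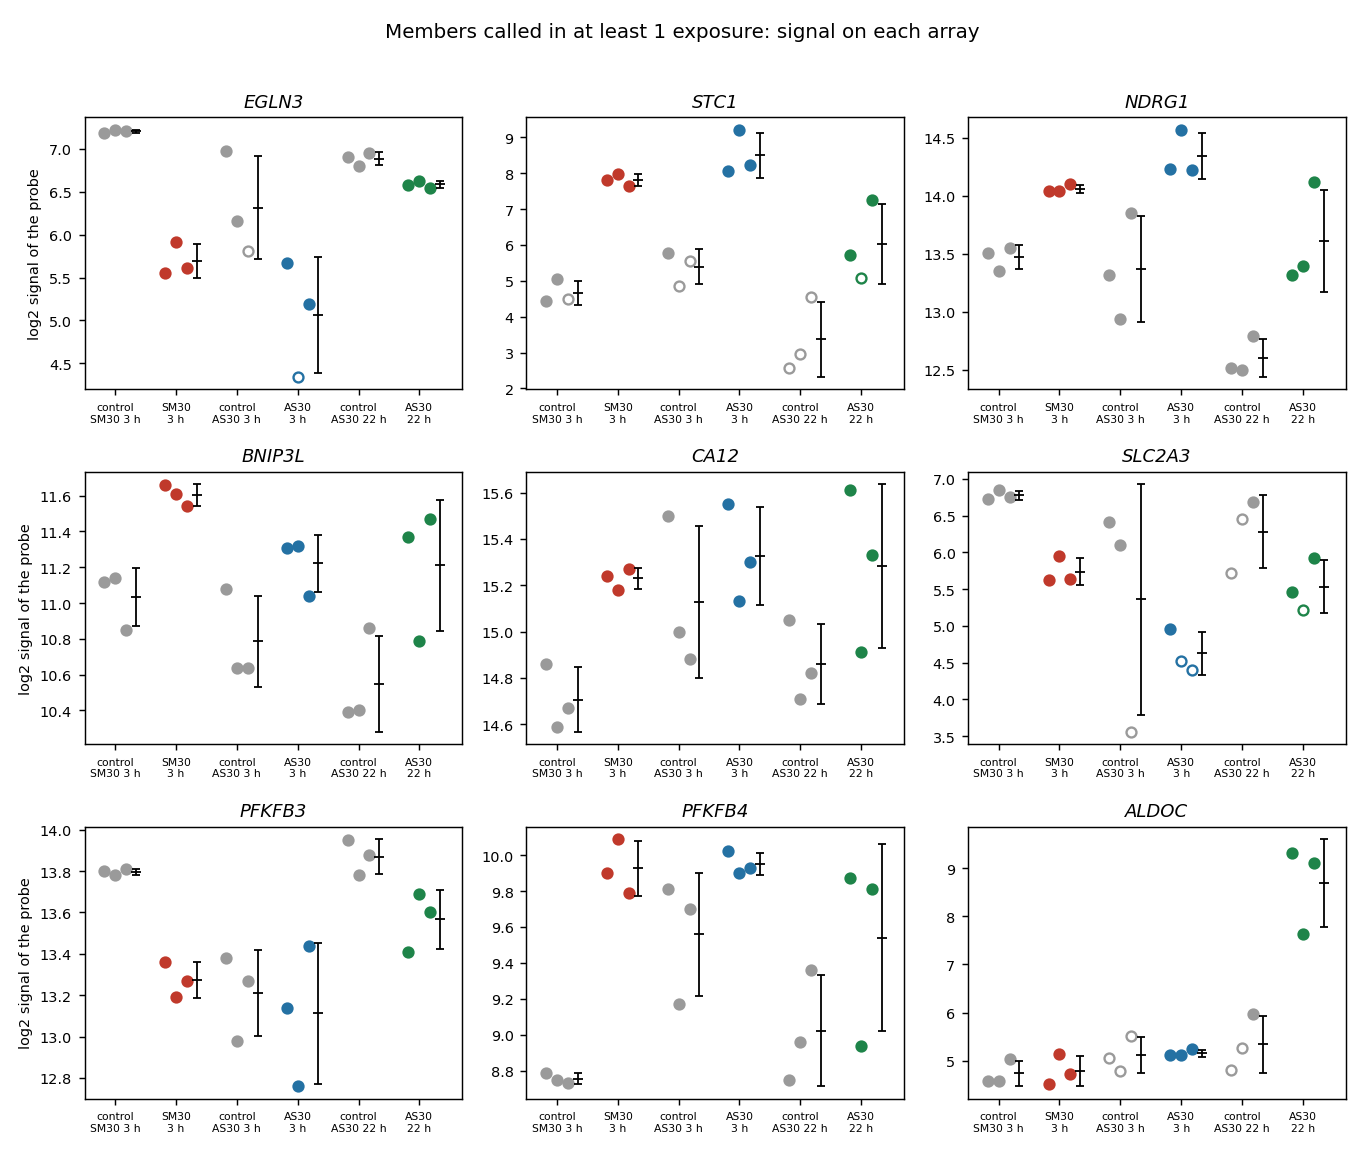
Log2 signal of the probe on each array for the 9 genes that passed the test in at least 1 exposure (panels), in the 6 groups. ALDOC is among them through its known rise at 22 h alone, which is a description. Points are arrays A, B and C from left to right, open where not well above background, and the black marks are the mean ± SD of 3 arrays. The lowest points of STC1 (22 h controls A and B) and of SLC2A3 (AS30 3 h control C) did not enter the fit. ALDOC is high in the 22 h treated cells alone, at 7.64 to 9.32.

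In glucose and proton transport, SLC2A3 fell at 3 h and CA12 rose after SM30. SLC2A3, the high-affinity glucose transporter GLUT3, stood at 5.63, 5.95 and 5.64 after SM30 against 6.73, 6.85 and 6.76. After AS30 at 3 h it stood at 4.96, 4.52 and 4.40 against 6.42, 6.10 and 3.56, where control C failed the spot filter and the fit held pairs A and B. Treated B and C were not well above background there. Both 3 h exposures had the treated arrays of the pairs used below their controls. The differences were -1.04 ± 0.18 (SE) for SM30 (adjusted p = 0.019) and -1.52 ± 0.22 (SE) for AS30 (adjusted p = 0.023). At 22 h, levels of 5.46, 5.21 and 5.92 against 5.72, 6.45 and 6.68 gave -0.75 ± 0.18 (SE) (adjusted p = 0.066). The dimmer second probe had -1.41, -0.87 and -1.65 with adjusted p-values of 0.051, 0.25 and 0.048, so the call moved to 22 h with it. A probe for SLC2A3 may share signal with near copies, and SLC2A14 had differences of -1.57, -0.78 and -0.96 while the pseudogene SLC2A3P1 had 0.70, 0.21 and 0.83. With all spots kept the AS30 value at 3 h was -0.73 and with normexp background correction -0.21 (adjusted p = 0.39 and 0.16), so neither the call nor the size held there. The SM30 value with normexp was -0.23 (adjusted p = 0.063).

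CA12, a membrane carbonic anhydrase of epithelia, was at 15.24, 15.18 and 15.27 after SM30 against 14.86, 14.59 and 14.67, with the groups apart. The difference was 0.53 ± 0.12 (SE), 1.44-fold, with an adjusted p of 0.039. After AS30 it was at 15.55, 15.13 and 15.30 against 15.50, 15.00 and 14.88 at 3 h, and at 15.61, 14.91 and 15.33 against 15.05, 14.71 and 14.82 at 22 h. Those groups overlapped, and the differences of 0.20 and 0.43 did not pass (adjusted p = 0.34 and 0.093). The 3 other CA12 probes gave 0.84, 1.03 and 0.24 after SM30, the first 2 past the threshold (adjusted p = 0.030 and 0.039) and the last not (0.34). The CA12 call held in 6 of 19 alternative settings.

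CA9, the carbonic anhydrase most often used as a marker of tumour hypoxia, was dim and did not pass. It stood at 6.85, 7.01 and 6.97 after SM30 against 6.97, 7.17 and 7.25, at 6.30, 6.17 and 6.15 after AS30 at 3 h against 6.30, 6.88 and 6.23, and at 6.12, 7.04 and 6.62 at 22 h against 6.69, 6.85 and 6.47. Its differences of -0.19, -0.27 and -0.08 had intervals of -0.62 to 0.24, -0.69 to 0.16 and -0.51 to 0.35. SLC2A1, the glucose transporter GLUT1, read 13.43, 13.36 and 13.46 after SM30 against 13.35, 13.38 and 13.77. It read 13.00, 12.81 and 13.09 after AS30 at 3 h against 13.19, 13.41 and 13.09, and 12.49, 12.87 and 12.55 at 22 h against 13.11, 12.81 and 12.79. Groups overlapped in all 3, and the differences were -0.08, -0.26 and -0.27, with intervals of -0.47 to 0.30, -0.65 to 0.12 and -0.65 to 0.11. SLC16A3, the lactate exporter MCT4, gave -0.15, -0.46 and 0.27 and passed in none.

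In glycolysis the enzymes of the main chain other than ALDOC did not pass. The calls fell on ALDOC, whose rise was already known, and on the pair of PFKFB isoenzymes. Over the 16 glycolytic members the median size of the difference, sign dropped, was 0.09, 0.12 and 0.17 after SM30, AS30 at 3 h and AS30 at 22 h. Over all genes, not matched to these members for signal, it was 0.26, 0.26 and 0.25. Unadjusted p-values in limma were under 0.05 for 2, 3 and 7 of the 16 (12.5%, 18.8% and 43.8%), the last count including ALDOC. The shares of all genes were 25.4%, 25.1% and 23.7%. ALDOC, the aldolase isoform best known from brain, was dim except in 1 group. It was still well above background on all 3 arrays after SM30, in the SM30 controls and after AS30 at 3 h. At 22 h after AS30 its levels were 9.32, 7.64 and 9.12 against 4.80, 5.26 and 5.97, with controls A and B not well above background. The group means were 8.69 ± 0.92 (SD, n = 3) and 5.34 ± 0.59 (SD, n = 3), a difference of 3.35 ± 0.35 (SE) or 10.2-fold, and the 3 pairs rose by 4.52, 2.38 and 3.15. At 3 h the levels were 5.11, 5.12 and 5.24 after AS30 against 5.06, 4.78 and 5.52, and 4.52, 5.13 and 4.73 after SM30 against 4.58, 4.58 and 5.04. Those groups overlapped, and 0 of the 3 AS30 controls at 3 h were well above background. Without pair A the 22 h difference was 2.77, and against the 1 control on the slide of the treated arrays it was 2.72. With normexp background correction it was 1.16, so the 10.2-fold size depends on how the dim controls are treated. ALDOA, the ubiquitous aldolase, had 0.04, 0.59 and -0.11 in the same order of exposures and passed in none.

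PFKFB3 and PFKFB4 set the level of fructose 2,6-bisphosphate, the activator of phosphofructokinase, and they moved in opposite directions after SM30. PFKFB4 stood at 9.90, 10.09 and 9.79 after SM30 against 8.79, 8.75 and 8.73. The groups were apart, and the difference was 1.17 ± 0.21 (SE), 2.24-fold (adjusted p = 0.016). PFKFB3 stood at 13.36, 13.19 and 13.27 against 13.80, 13.78 and 13.81, also apart, a difference of -0.52 ± 0.13 (SE) or 1.44-fold lower (adjusted p = 0.048). After AS30 at 3 h PFKFB4 read 10.02, 9.90 and 9.93 against 9.81, 9.17 and 9.70, and PFKFB3 read 13.14, 12.76 and 13.44 against 13.38, 12.98 and 13.27. At 22 h PFKFB4 read 9.87, 8.94 and 9.81 against 8.75, 8.96 and 9.36, and PFKFB3 read 13.41, 13.69 and 13.60 against 13.95, 13.78 and 13.88. Neither passed after AS30, with PFKFB4 at 0.39 and 0.52 and PFKFB3 at -0.10 and -0.30. The other 3 PFKFB3 probes had -0.30, -0.62 and -0.29 after SM30 and did not pass (adjusted p = 0.52, 0.16 and 0.41). The PFKFB4 call held in 15 of 19 alternative settings and that of PFKFB3 in 7.

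LDHA, which turns pyruvate into lactate, was among the flattest members. Its levels were 15.71, 15.99 and 15.91 after SM30 against 15.95, 15.86 and 15.90, 15.84, 15.90 and 16.09 after AS30 at 3 h against 16.12, 16.01 and 15.98, and 15.97, 15.95 and 16.22 at 22 h against 16.05, 15.94 and 16.18. The groups overlapped in all 3 exposures. Its differences of -0.04, -0.09 and -0.01 had intervals of -0.31 to 0.24, -0.37 to 0.18 and -0.29 to 0.26, so a 2-fold change lies outside each. PDK1, a kinase that inhibits pyruvate dehydrogenase, read 7.76, 8.04 and 7.89 after SM30 against 7.94, 7.98 and 7.90. It read 7.43, 7.13 and 7.49 after AS30 at 3 h against 7.46, 7.38 and 6.92, and 7.38, 7.56 and 7.88 at 22 h against 6.77, 7.41 and 7.45. The differences were -0.04, 0.10 and 0.40, and the last had an unadjusted p of 0.042 and an adjusted p of 0.2. The dimmer second PDK1 probe, well above background on 11 of 18 arrays, gave 0.11, -0.70 and -0.87 (adjusted p = 0.79, 0.18 and 0.12), with the sign opposite to the first after AS30 at both times.

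The other 11 enzymes of the chain, hexokinases HK1 and HK2, GPI, the phosphofructokinases PFKL and PFKP, ALDOA, TPI1, PGK1, PGAM1 and the enolases ENO1 and ENO2, passed in no exposure. After SM30 they ran from -0.26 (GPI) to 0.64 (HK2), after AS30 at 3 h from -0.33 (PGAM1) to 0.85 (HK2), and at 22 h from -0.28 (PGAM1) to 0.67 (HK1). HK2, the hypoxia-inducible hexokinase, had pair ratios of 0.75, -1.17, 0.39 at 22 h, which spread on both sides of 0. ENO2, the enolase known from neurons, had 0.64 at 22 h with all 3 pairs above control (unadjusted p = 0.0027, adjusted p = 0.058). PGK1, whose upstream stretch holds ACGTG or its reverse complement at 2 places, had -0.01, 0.11 and 0.22. The collagen prolyl hydroxylases gave 0.14, 0.36 and 0.47 for P4HA1 and 0.12, 0.20 and 0.21 for P4HA2, and LOX, the collagen cross-linking enzyme, was not well above background.

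The comparison of SM30 with AS30 at 3 h asked whether NPs of different size gave different responses. As supplied the products also differ in counterion, sodium in SM30 and ammonium in AS30, so size is not the only difference. No member passed the test of the difference, 0 of 36, where 0.0143% of all genes passed, and 3 of the 36 (8.33%) had an unadjusted p under 0.05 in limma, beside 15.4% of all genes. These were PFKFB4 at 0.77 ± 0.29 (SE) (interval 0.11 to 1.44, adjusted p = 0.29), ADM at 0.55 ± 0.21 (SE) (interval 0.06 to 1.03, adjusted p = 0.3) and PFKFB3 at -0.43 ± 0.18 (SE) (interval -0.85 to 0.00, adjusted p = 0.34). The responses of STC1 lay close, with a difference of 0.05 and an interval of -1.22 to 1.32. EGLN3 had -0.26 (-0.91 to 0.39) and SLC2A3 0.47 (-0.19 to 1.14). PFKFB4, PFKFB3, CA12 and BNIP3L, which passed after SM30 and not after AS30 at 3 h, are thus not shown to differ between the NPs.

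For AS30 the late response was compared with the early one, as the difference of 22 h minus 3 h. No member passed, 0 of 36, where 0.0388% of all genes passed, and 6 of the 36 (16.7%) had an unadjusted p under 0.05 in limma, beside 18.2% of all genes. ALDOC had the largest value among members, 3.31, which rests at 3 h on controls not well above background. EGLN3 followed at 0.95 ± 0.28 (SE) (interval 0.30 to 1.60, adjusted p = 0.18), from a fall at 3 h to a value near control at 22 h. EPAS1 had 0.88 with its brighter probe and -0.01 with the other. SLC2A3 had 0.77, SLC16A3 0.74, ENO2 0.51 and ADM 0.51. The lowest value among members, that of a glycolytic gene, was -0.86. STC1 had -0.41 with an interval of -2.21 to 1.39, and NDRG1 0.04 with -0.66 to 0.74. The ALDOC value contains the rise that was already known and is a description.

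Untreated cells were compared through the AS30 controls at 22 h and 3 h. These cells also had 2 h without serum, so time in culture and time since the return of serum cannot be told apart. The 3 h controls all lay on slide 1, and the 22 h controls A, B and C on slides 1, 2 and 3. No member passed, 0 of 36, where 1.34% of all genes passed (0.561% higher and 0.779% lower), and 5 of the 36 (13.9%) had an unadjusted p under 0.05 in limma, beside 15.1% of all genes. These were PFKFB3 at 0.66 ± 0.15 (SE) (adjusted p = 0.051), EGLN1 at -0.48, NDRG1 at -0.77, PFKFB4 at -0.54 and SLC2A1 at -0.33. On slide 1 alone, with 1 control at 22 h and 3 at 3 h, the same genes had 0.74, -0.26, -0.86, -0.81 and -0.12. PFKFB3 control levels were 13.95, 13.78 and 13.88 at 22 h and 13.38, 12.98 and 13.27 at 3 h, with the groups apart. NDRG1 control levels were 12.51, 12.50 and 12.79 and 13.32, 12.94 and 13.85, also apart, at an adjusted p of 0.12. The NDRG1 level in treated cells at 22 h, 13.32 to 14.12, overlaps that of the 3 h controls, 12.94 to 13.85. ALDOC was well above background on 1 of 3 controls at 22 h and 0 of 3 at 3 h, so its plotted difference rests on dim signals and is not read. For STC1 only control C entered the fit at 22 h, and 0 of the 3 controls there were well above background.

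**Figure D4:**
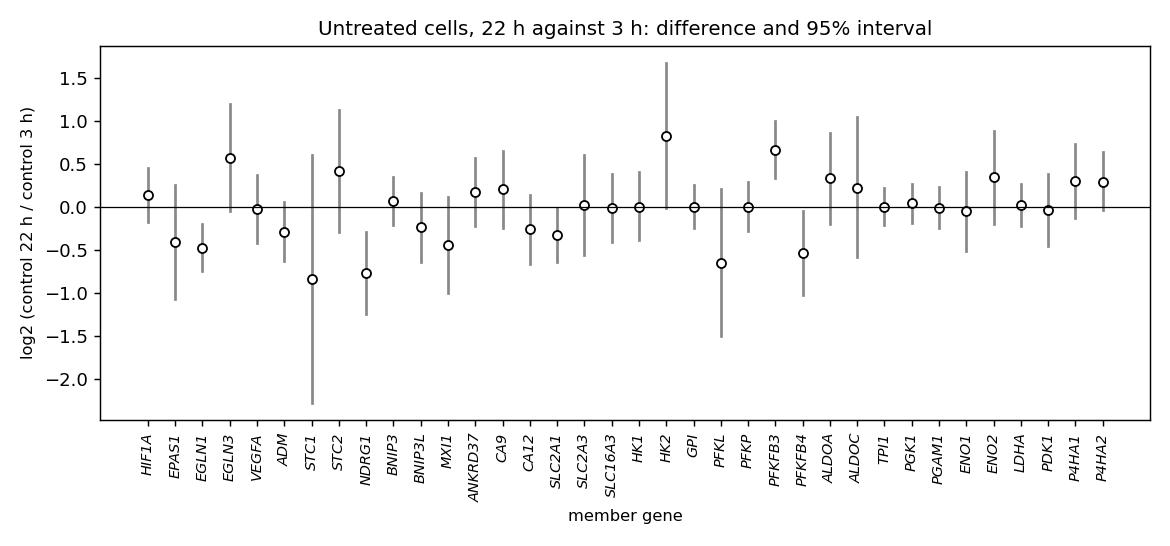
Log2 difference of AS30 controls at 22 h over those at 3 h for the 36 tested genes, with bars for the 95% interval. No difference passed the adjusted threshold, and the intervals of PFKFB3 (0.66), NDRG1 (-0.77), EGLN1 (-0.48), PFKFB4 (-0.54) and SLC2A1 (-0.33) leave out 0. The points of ALDOC and STC1 rest on dim controls, and that of STC1 on control C alone at 22 h.

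Slides were not balanced over the groups. On the slide that held SM30 A with the 3 SM30 controls, the differences of the 7 called members were -1.65 for EGLN3, 3.15 for STC1, 0.63 for BNIP3L, 0.54 for CA12, -1.16 for SLC2A3, -0.44 for PFKFB3 and 1.14 for PFKFB4. On the slide that held the 22 h treated arrays with control C they were 2.72 for ALDOC, 0.82 for NDRG1 and 0.35 for BNIP3L. Every one kept its sign, but these arrays also entered the calls, so the values are no separate check. No slide held both AS30-treated and control arrays at 3 h, so no such value exists for that exposure. Of the 26 other kept probes of members, 8, 12 and 4 had the opposite sign to the probe used after SM30, AS30 at 3 h and AS30 at 22 h, and SLC2A3 at 22 h was the only member called through another probe alone. With slide as a fixed block 0 members passed in each exposure, with 5, 1 and 4 at an unadjusted p under 0.05. That fit has little to work with. For SM30 it compares 1 treated array with 3 controls on a slide, and at 22 h 3 treated arrays with 1 control. For AS30 at 3 h it links the slides only through the 22 h controls A and B. Whether slide made the calls was not tested.

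A list of 45 further genes of the same pathways was read beside the members, of which 44 were on the array and 43 tested. Over all genes 7.67% passed after SM30 (4.24% higher and 3.43% lower). Of the list, 5 were higher and 0 lower (11.6%). They were ANGPTL4, a secreted inhibitor of lipoprotein lipase (1.73 ± 0.34 SE, adjusted p = 0.022), the histone demethylases KDM6B (1.53 ± 0.33, under its older name JMJD3) and KDM3A (0.57 ± 0.12, JMJD1A), CITED2, which competes with HIF for its coactivator (0.96 ± 0.23), and BPGM, the bisphosphoglycerate mutase (0.76 ± 0.15). After AS30 at 3 h BPGM was higher (0.96 ± 0.15) and the collagen lysyl hydroxylase PLOD2 (-0.79 ± 0.16) was lower. PFKFB1, the liver and muscle isoenzyme, was also called (-3.28), on 1 usable pair, C, so that its call has no replicate of its own. With it 3 of 43 (6.98%) were called, where 2.62% of all genes passed. At 22 h and in untreated cells none passed, where 3.83% and 1.34% of all genes did. There 7 and 4 of 43 (16.3% and 9.3%) had an unadjusted p under 0.05 in limma, beside 23.7% and 15.1% of all genes. The list was chosen with earlier results known, so nothing is read from these shares. The median difference of the 43 genes was -0.05, 0.05 and 0.08 in the 3 exposures.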

How the data were processed

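RNA from 18 samples of A549 cells was labelled with Cy3 and hybridised to one-colour Agilent arrays, and the authors deposited scanner files made with Agilent Feature Extraction 10.5.1.1, per the file headers. Each deposited file gives the intensity of a spot, background-subtracted in the processed signal. The authors also deposited a table of quantile-normalized intensity values. Here processed signals of 43376 non-control spots were quantile normalized over the 18 arrays with limma 3.58.1 in R 4.3.3, where statmod 1.5.0 served the random block and files were read with data.table, version 1.17.8, and spots of one probe were averaged. Spots flagged as non-uniform or population outliers were treated as missing, as were spots that were not positive and significant. Of 41000 probes, 28665 with at most 33% missing were kept. The alternative with all spots kept still left the outliers out. A gene was read through its kept probe of highest mean signal. Probe coordinates are those of hg18 in the scanner files, and promoter windows are those of RefSeq on GRCh38.p14.

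Log2 ratios were formed over the same-letter control, as the methods divide by the corresponding control, and the correlations of same-letter deviations ran from -0.09 to 0.48. A limma fit over the 9 ratios gave the 3 exposures and the 2 differences between them, and a fit over the 18 arrays gave the untreated comparison. Adjusted p-values are Benjamini-Hochberg over all kept probes, with a threshold of 0.05. Members and lists were chosen with earlier results of these data known. The text names all members called in an exposure, HIF1A, EPAS1, SLC2A1, LDHA, PDK1 and CA9, the lowest and highest of the rest, and pathway genes that were called. Genes named beyond these were chosen after their values were seen. The fits were tested on simulated data. Alternatives were other scalings and background corrections, other filters and probes, slide as a block, no pairing, the compared groups alone, and leaving out each pair. No deposited column of per-sample values went unmapped.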

Additional observations from a re-analysis of the deposited data

Results flagged for a closer look

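EPAS1 and SLC16A3 had AS30 pair ratios of opposite sign at the 2 recovery times in every pair. EPAS1 had log2 ratios of -0.18, -0.28 and -0.14 at 3 h and 0.47, 0.33 and 1.25 at 22 h, a difference of 0.88 ± 0.42 (SE). SLC16A3 had -0.55, -0.73 and -0.10 at 3 h and 0.08, 0.20 and 0.54 at 22 h, a difference of 0.74 ± 0.27 (SE). In limma's test of the difference itself neither passed, with adjusted p-values of 0.33 and 0.24. The sign change of EPAS1 was seen in the brighter of its 2 probes and not in the other, which gave 0.54 at 3 h, 0.52 at 22 h and -0.01 for 22 h minus 3 h.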

How the results depend on the processing

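No called member changed direction under any alternative run, while many calls did not hold. The count of members called after SM30 was 7 and became 3 with all spots kept, 4 with the second probe of each gene and 0 with slide as a fixed block. The count after AS30 at 3 h was 3 and became 1 with normexp background correction, 1 with all spots kept, 7 with slide as a random block, 0 with slide as a fixed block and 0 with the compared groups alone. At 22 h it was 3 and became 0 with slide as a fixed block and 0 with the compared groups alone. The untreated count was 0 and became 1 with 75th percentile scaling, normexp, probes detected on all arrays, or slide as a random block. The 22 h minus 3 h count was 0 and became 1 with slide as a random block. The cause of these shifts was not tested.

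Leaving out 1 pair, or 1 control for untreated cells, gave 0 to 7 members after SM30, 0 to 7 after AS30 at 3 h, 0 to 3 after AS30 at 22 h, 0 to 0 for SM30 minus AS30, 0 to 1 for 22 h minus 3 h and 0 to 2 for untreated cells. Without SM30 pair A, B or C the SM30 count was 1, 1 and 0, and without AS30 pair A, B or C at 3 h the AS30 count there was 1, 1 and 7. Without AS30 pair A or C at 22 h the count there was 0 and 1.

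Without pairing by letter (no replicate block) the counts were 5 after SM30, 5 after AS30 at 3 h, 2 after AS30 at 22 h, 0 for SM30 minus AS30 and 1 for 22 h minus 3 h. With a replicate block the untreated count was 0. Same-letter correlations were not above 0.1 in every pair, so the letters pair the samples through the methods alone. Dim probes limit EGLN3, SLC2A3, STC1 and ALDOC.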
